A study of Mus musculus with 50 samples.

Results

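The Igf2 and H19 imprinted locus of the mouse lies on chromosome 7. It was taken here as every CpG measured in a 160 kb window (mm10, the same assembly as GRCm38) that spans both genes, from the end of Mrpl23 into Ins2. This gave 22 of the 205304 CpGs of the series, the outermost at 142542917 and 142692755. These CpGs fell into 10 of 51038 clusters, a cluster being a run of neighboring CpGs as the authors grouped them, and the clusters are numbered 1 to 10 below in order of position. Methylation was read by RRBS (reduced representation bisulfite sequencing), in which DNA cut with the enzyme MspI is treated with bisulfite so that only methylated cytosines are still read as C. The tissue was soleus, a slow postural muscle, and the C57BL/6 mice of both sexes were 12 weeks old. WT mice carried floxed alleles of Dnmt3a (Dnmt3a flox/flox, loxP sites around exon 19) without Cre. Muscle Dnmt3a knockout mice (mD3AKO) carried the same floxed alleles and a Cre transgene driven by the muscle creatine kinase promoter (mCK-Cre Tg), which is active in muscle fibers. The paper proposes that the Dnmt3a RNA left in mD3AKO muscle likely came from satellite cells and cells other than muscle. Muscles were taken 10, 30 or 60 min after a 30 min treadmill run, or from mice that were not run (rest). The table held 44 samples: at rest and at 10, 30 and 60 min there were 5, 5, 5 and 6 WT mice and 5, 5, 7 and 6 mD3AKO mice.

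H19 is a noncoding RNA and Igf2 encodes insulin-like growth factor 2, a fetal growth factor. In the mouse, H19 is transcribed from the maternal and Igf2 from the paternal chromosome. An imprinting control region upstream of H19 is methylated on the paternal copy, while on the unmethylated maternal copy CTCF binds it and keeps shared enhancers from Igf2. Igf2 and H19 are both known to be active in myoblasts and in fetal muscle. DNMT3A is a DNA methyltransferase that sets methylation de novo, including the imprints of the germ line. RRBS reads of an inbred strain do not separate the parental copies, so each level below is the share of methylated calls over both copies and over all cells of the muscle.

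The CpGs were unevenly spread over the locus. The window holds 1752 CpGs and 185 MspI sites (CCGG, the sites at which RRBS cuts the DNA) in the reference, and 22 of these CpGs were in the table analysed here. None of them lay within 2 kb upstream of the H19 start or from 2 to 4.5 kb upstream of it, where the imprinting control region is, so that region was not analysed here. The 3 CpGs of H19 lay in exon 5, the last exon, at 142575795, 142575817 and 142575863. Igf2 held 11 CpGs. Of these, 3 lay in the 3′ untranslated part of exon 4, the last exon (cluster 6, 142652084-142652146), 4 lay between 142659053 and 142660507 around the start of the antisense transcript Igf2os (cluster 7), and 4 lay in an intron at 142664367-142664387 (cluster 8). In cluster 7 the CpG at 142659053 lay in a 5′ untranslated exon of Igf2 and the others in introns of Igf2. Beyond Igf2, 2 CpGs lay in the coding exon of the read-through gene Gm49394, which overlaps Igf2os (cluster 9, 142669634-142669639), and 1 lay in an intron of Ins2 (cluster 10, 142692755). On the other side, 2 were intergenic (cluster 1, 142542917-142542924), 1 lay in an intron of the noncoding Nctc1 (cluster 2, 142557870), 1 was intergenic (cluster 3, 142561302), and 1 lay between H19 and Igf2 in an intron of the noncoding Gm33148 (cluster 5, 142611526).

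The reference sequences below show the stretches behind 4 of these clusters, from the plus strand of GRCm38 and 5′ to 3′, with the measured CpGs in capitals. The H19 stretch, chr7:142575719-142575929, is the amplicon that the study's bisulfite pyrosequencing primers match, and it holds all 3 measured CpGs among its 5. The other stretches show an isolated CpG in Nctc1 at chr7:142557840-142557901, the sparsely methylated CpGs of Igf2 at chr7:142664337-142664418, and the nearly fully methylated pair beyond Igf2 at chr7:142669603-142669669.
H19 last exon: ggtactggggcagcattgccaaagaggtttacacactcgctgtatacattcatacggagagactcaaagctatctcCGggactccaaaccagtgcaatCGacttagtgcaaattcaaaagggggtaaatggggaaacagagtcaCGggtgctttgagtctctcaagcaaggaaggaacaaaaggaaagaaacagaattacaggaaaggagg
Nctc1 intron: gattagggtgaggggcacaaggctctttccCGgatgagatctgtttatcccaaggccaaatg
Igf2 intron: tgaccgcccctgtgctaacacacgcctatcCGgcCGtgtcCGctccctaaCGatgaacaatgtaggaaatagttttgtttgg
Gm49394 exon: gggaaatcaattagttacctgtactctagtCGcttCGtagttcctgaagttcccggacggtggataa
The 3 H19 CpGs lay 1, 23 and 69 bases into 1 MspI fragment of 177 bp, and the 3 CpGs of the Igf2 last exon lay 1, 34 and 63 bases into 1 fragment of 143 bp. CpGs of 1 fragment are read together, so the 3 members of each set share their reads and are not independent measurements.

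Levels along the locus ranged from unmethylated to fully methylated. In WT mice the Gm49394 exon was at 97.7% ± 3.99 (SD, n = 21), the Igf2 last exon at 75.5% ± 6.04, the H19 last exon at 60.4% ± 5.05, the Igf2 intron of cluster 8 at 7.27% ± 4.62 and cluster 7 of Igf2 at 0.995% ± 1.62. Clusters with a single CpG or few reads were noisy. The Gm33148 CpG, with 14 to 166 calls per sample, was at 33.4% ± 25.1 in WT mice, and the Ins2 CpG at 65.8% ± 23.1. The Nctc1 CpG was at 12.8% ± 11.7, cluster 3 at 30.0% ± 27.7 and cluster 1 at 38.3% ± 18.8. The spread of the deeper clusters was also larger than reads alone give. The H19 CpGs were covered by 168 to 1086 calls, and the SD between WT mice was 8.09, 9.43 and 10.8 percentage points where counting error alone gives 2.70, 2.80 and 2.59.

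**Figure D1:**
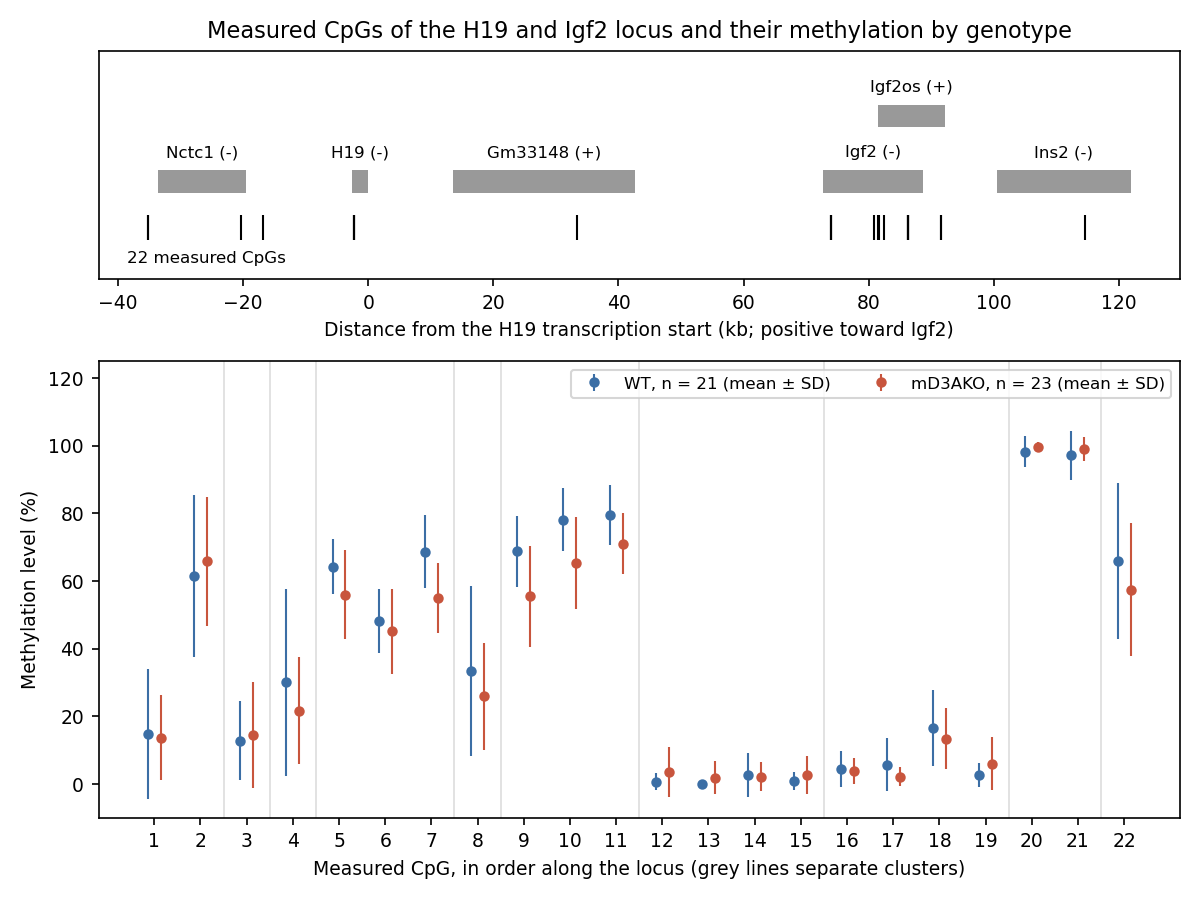
The upper panel maps the 22 measured CpGs (ticks) and the genes around them by distance from the H19 start in kb, with strands in parentheses. The lower panel gives each CpG's methylation level in percent as mean ± SD of 21 WT (blue) and 23 mD3AKO (red) samples, in order along the locus: CpGs 9 to 11, of the Igf2 last exon, fall from 68.8%, 78.2% and 79.6% to 55.5%, 65.4% and 71.1%, and CpGs 12 to 15 are near 0 in both genotypes.

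The first comparison asked whether loss of Dnmt3a in muscle changed methylation at the locus. The last exon of Igf2 was the member that passed the test over all clusters: it was less methylated in mD3AKO than in WT muscle. In WT samples its level ran from 66.8%, through a median of 75.6%, to 85.6%. In mD3AKO samples it ran from 42.0%, through a median of 65.0%, to 77.7%. Of the knockout samples, 13 of 23 lay below the lowest WT sample, and 8 of 21 WT samples lay above the highest knockout sample, so the groups overlapped in part. The means were 75.5% ± 6.04 (SD, n = 21) and 64.0% ± 8.02 (SD, n = 23), a difference of -11.5 percentage points, with 207 to 2049 calls per sample. In edgeR's quasi-likelihood test fitted over all clusters the log2 odds ratio was -0.81 (SE 0.19, from the F statistic) and the Benjamini-Hochberg adjusted p was 0.0154. It was the only one of the 10 clusters past an adjusted p of 0.05, and over all clusters 1.09% were called in either direction and 1.08% as lower in mD3AKO. The loss was seen in both sexes, from 76.8% ± 6.48 to 64.2% ± 8.66 in males and from 74.1% ± 5.51 to 63.8% ± 7.68 in females. Sample numbers 1 to 25 hold the rest and 60 min groups and numbers 26 to 50 the 10 and 30 min groups. The log2 odds ratio was -0.95 (adjusted p = 0.371) in the former and -0.66 (adjusted p = 0.705) in the latter by the same edgeR test, so neither set alone passed. Joining CpGs within 50 bp into clusters, which left the 3 CpGs together, gave an adjusted p of 0.068, in a fit over 73938 clusters whose common dispersion was 0.555, against 0.441 in that over 51038. Over all alternatives and samples left out, its adjusted p ran from 0.000417 to 0.705.

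All 3 CpGs of the Igf2 last exon had lower means in mD3AKO. The CpG at 142652084 was at 68.8% ± 10.5 in WT and 55.5% ± 14.9 in mD3AKO, that at 142652117 at 78.2% ± 9.29 and 65.4% ± 13.6, and that at 142652146 at 79.6% ± 8.85 and 71.1% ± 9.02. At each of them 19 of 23 knockout samples lay below the WT mean. Taken one by one in the edgeR fit over all CpGs their log2 odds ratios were -0.84, -0.99 and -0.77 with adjusted p from 0.523 to 0.783, so none passed alone. The same fit called 0.284% of all CpGs, and the share called as lower in mD3AKO was also 0.284%. It called 0 of the 22 CpGs of the locus, with 4 at an unadjusted p under 0.05, beside 13032 of all 205304 CpGs. Where every sample of a group is at 0 or at 100% the contrast averaged over the times can have an F of 0 whatever the levels, which was so for 43.9% of all CpGs and 3 of the 22, none of them in H19 or the Igf2 last exon.

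H19 was also lower on average in mD3AKO, without passing the test over all clusters. Its WT samples ran from 51.7%, through a median of 61.0%, to 68.2%, and its mD3AKO samples from 36.9%, through 52.2%, to 82.4%. Of the knockout samples, 11 of 23 lay below the lowest WT sample, while the highest of all 44 samples was also a knockout, a mouse at 10 min. The means were 60.4% ± 5.05 and 52.0% ± 11.0, a difference of -8.35 percentage points with 506 to 3252 calls per sample. The log2 odds ratio was -0.49 (SE 0.20), and the adjusted p of edgeR's quasi-likelihood test was 0.342. A two-sided permutation test of this single value over the samples, with 100000 resamples, gave p = 0.00254, which is not adjusted for the 51038 clusters. Without the knockout sample at 82.4% the difference was -9.73 percentage points and the edgeR adjusted p, over the locus and every 20th other cluster, was 0.0952, and over all alternatives and samples left out it ran from 0.089 to 0.888. The difference in males was -8.01 percentage points (permutation p = 0.0754) and in females -8.72 (permutation p = 0.0128). No test compared the differences of H19 and Igf2. By its own tests the paper reports a CpG of the H19 body as differentially methylated in soleus, with more H19 RNA in mD3AKO. Over all clusters the paper's test called more than the fit used here. Its pyrosequencing of EDL and quadriceps muscle from other mice, older males, found lower methylation at every H19 CpG except the first. H19 RNA was higher in mD3AKO in those muscles too.

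The CpGs of the H19 fragment did not differ equally between genotypes. The CpG at 142575863 was at 68.7% ± 10.8 in WT and 55.0% ± 10.4 in mD3AKO, and 21 of 23 knockout samples lay below the WT mean. The CpG at 142575795 was at 64.3% ± 8.09 and 56.0% ± 13.1. The one between them, at 142575817, was at 48.1% ± 9.43 and 45.1% ± 12.6, with 12 of 23 knockout samples below the WT mean. It was the lowest CpG of the fragment in most mice: the CpG at 142575863 exceeded it in 20 of 21 WT and 22 of 23 mD3AKO samples. That excess was 20.7 ± 15.1 percentage points in WT and 9.86 ± 8.61 in mD3AKO. The excess differed between genotypes by -10.8 points (permutation p = 0.0048, or 0.0288 after Benjamini-Hochberg adjustment over the 6 pairs of CpGs compared within both fragments, a comparison chosen after the values were seen). The other pairs within the H19 and Igf2 fragments gave permutation p from 0.102 to 0.905. In the fit over all CpGs the one at 142575863 had a log2 odds ratio of -0.90 and an adjusted p of 0.333 by edgeR, and 0.0117 by a quasi-binomial model.

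**Figure D2:**
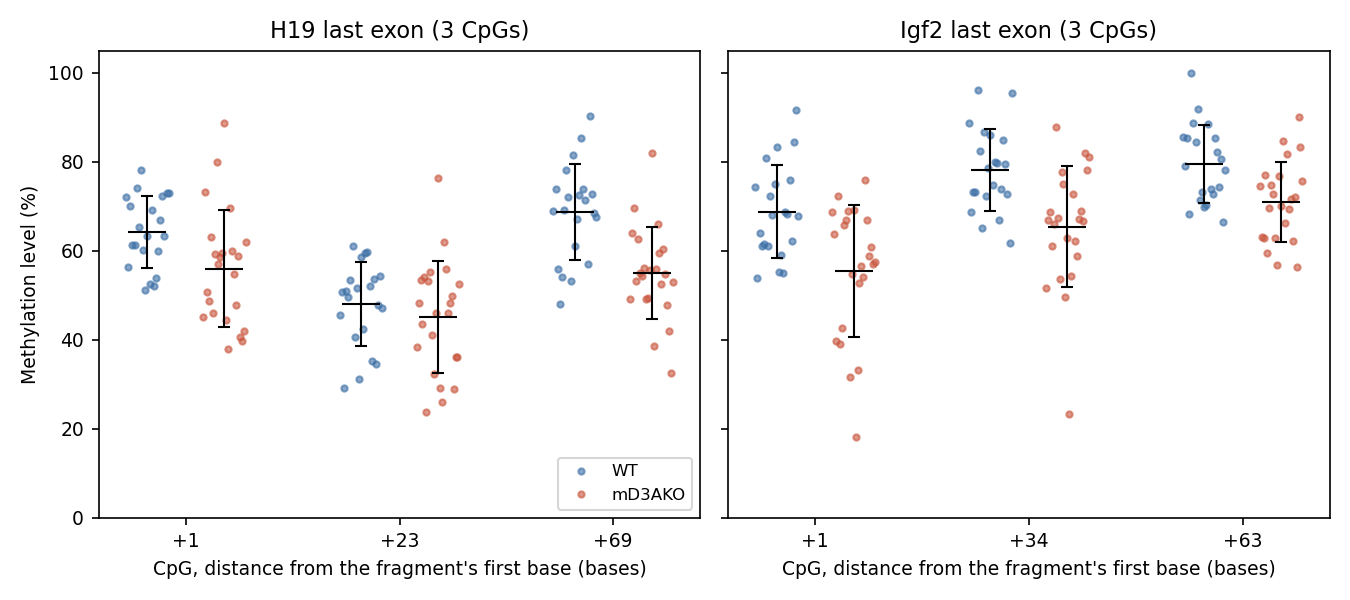
Methylation level in percent of the 3 CpGs of the H19 last exon (left) and of the Igf2 last exon (right), placed by their distance in bases from the start of the MspI fragment that holds them. Each point is a sample, blue WT and red mD3AKO, and bars are mean ± SD: the middle H19 CpG is the lowest in both genotypes, and its means, 48.1% and 45.1%, are the closest.

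The other clusters of Igf2 did not pass the test. Cluster 7 was nearly unmethylated. In WT samples its lowest and median levels were both 0 and its highest was 4.82%, and in mD3AKO samples the range was 0 to 8.33% with a median of 1.12%. The means were 0.995% ± 1.62 and 2.66% ± 2.82, with 61 to 436 calls per sample, so that the groups overlapped throughout. Its log2 odds ratio of 1.85 (SE 0.68) had an adjusted edgeR p of 0.269, and is no bound, since a group was wholly at 0. At 10 min all 5 WT samples were at 0, with 135 to 307 calls each, which allow levels of up to 2.22% to 0.977%, and the 5 mD3AKO samples were at 1.09%, 2.49%, 4.52%, 6.28% and 8.33%. That difference had an adjusted p of 0.554 in edgeR's quasi-likelihood test, and an adjusted p of 0.0445 in its likelihood ratio test on the locus and every 10th other cluster. Cluster 8, in the intron of Igf2, was at 7.27% ± 4.62 in WT and 6.28% ± 3.48 in mD3AKO (adjusted p = 0.959, edgeR). The 4 CpGs of that cluster were not alike: the CpG at 142664377 was at 16.5% ± 11.3 in WT while those at 142664367, 142664371 and 142664387 were at 4.47% ± 5.27, 5.70% ± 7.88 and 2.70% ± 3.63.

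No cluster outside Igf2 and H19 passed. The Gm49394 exon was at 97.7% ± 3.99 in WT and 99.3% ± 2.11 in mD3AKO, with medians of 100% in both (adjusted p = 0.518, edgeR). The Ins2 CpG was at 65.8% ± 23.1 and 57.4% ± 19.7 (adjusted p = 0.723). The Gm33148 CpG was at 33.4% ± 25.1 and 25.9% ± 15.8 (adjusted p = 0.939). Clusters 1, 2 and 3 were at 38.3%, 12.8% and 30.0% in WT and 39.9%, 14.5% and 21.7% in mD3AKO, with adjusted p from 0.892 to 0.979 by edgeR. The SD between WT samples at the Ins2 and Gm33148 CpGs, 23.1 and 25.1 points, was above the 8.12 and 8.26 points of counting error.

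When all calls within the annotated Igf2 gene body were summed, the log2 odds ratio was -0.41 (SE 0.17) with an adjusted p of 0.349 by edgeR, in a fit that called 1.40% of 12391 gene bodies. The CpGs that the authors assigned to the Igf2 promoter are the 2 of cluster 9, in the Gm49394 exon, and gave a log2 odds ratio of 1.52 (SE 0.75) and an adjusted p of 0.61 by edgeR, where 0.789% of 9761 promoters were called. The mD3AKO samples were all at 100% at 10 and at 60 min, so this ratio depends on the small count that the fit adds. With 1 sample left out in turn the log2 odds ratio of cluster 9 ran from 0.89, without WT sample 38, to 2.05. As pooled calls, the 11 CpGs of Igf2 were at 37.0% ± 7.14 in WT and 30.5% ± 7.48 in mD3AKO, a difference of -6.47 percentage points (permutation p = 0.0055). This pooled level of Igf2 rose and fell with the pooled level over all CpGs, and both weight each CpG by its calls. The whole-sample level ran from 20.1% (sample 32) to 37.5% (sample 21) as pooled calls. With equal weight for each CpG it ran from 23.2% (sample 28) to 26.6% (sample 44), and no relation of that level to Igf2 was computed. Across the WT samples the Pearson r of pooled Igf2 with the pooled level over all CpGs was 0.657 (permutation p = 0.00122, adjusted over 10 relations 0.0061) and Spearman's rho was 0.671 (permutation p = 0.00105). In mD3AKO r was 0.753 (permutation p = 8e-05, adjusted 8e-04) and rho was 0.723 (permutation p = 0.00017). Without the 2 samples farthest from the median of the whole-sample level r was 0.535 in WT and 0.797 in mD3AKO. With each of the 11 Igf2 CpGs given equal weight, r with the pooled whole-sample level was -0.0948 in WT and 0.314 in mD3AKO (adjusted permutation p = 0.725 and 0.586). The genotype difference of Igf2 was then -2.95 percentage points (permutation p = 0.00094). The level of the Igf2 last exon alone had an r of 0.0762 and 0.442 with the whole-sample level (adjusted permutation p = 0.739 and 0.347).

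The second question was whether acute exercise moved methylation at the locus. Levels of the Igf2 last exon in WT were 67.5%, 70.6%, 82.9%, 84.0% and 85.6% at rest, 66.8%, 69.5%, 72.1%, 73.5% and 80.3% at 10 min, and 69.6%, 75.8%, 75.9%, 79.2% and 81.1% at 30 min. At 60 min the lowest, median and highest WT levels were 67.3%, 74.9% and 83.7%. Thus WT samples covered nearly the same range at every time. In mD3AKO the levels were 60.4%, 65.0%, 66.5%, 69.9% and 70.2% at rest and 51.4%, 61.5%, 67.4%, 69.3% and 73.0% at 10 min. The lowest, median and highest were 42.0%, 68.5% and 77.7% at 30 min and 54.5%, 60.8% and 69.3% at 60 min. The knockout mean was below the WT mean at each time, and the groups overlapped at each. The log2 odds ratio between genotypes was -0.93, -0.53, -0.79 and -0.98 at rest, 10, 30 and 60 min, with adjusted p of 1, 1, 0.921 and 0.8 by edgeR. A test of the genotype difference across the times, the interaction term, gave an adjusted p of 1 by edgeR.

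For H19 the WT levels were 53.5%, 55.1%, 55.1%, 62.2% and 65.6% at rest, 54.0%, 60.0%, 62.7%, 65.4% and 65.7% at 10 min, and 55.5%, 59.2%, 61.3%, 65.7% and 67.1% at 30 min. At 60 min they ran from 51.7%, through 60.7%, to 68.2%. In mD3AKO they were 41.7%, 44.3%, 48.5%, 49.1% and 53.8% at rest and 36.9%, 40.0%, 51.2%, 54.4% and 82.4% at 10 min. At 30 min they ran from 37.4%, through 52.2%, to 65.9%, and at 60 min from 46.8%, through 59.0%, to 63.8%. The resting groups came closest to separating, with the highest knockout sample at 53.8% and the lowest WT sample at 53.5%. The genotype differences in mean were -10.8, -8.56, -12.04 and -2.28 percentage points at rest, 10, 30 and 60 min, with exact permutation p of 0.0159, 0.325, 0.0505 and 0.53, none adjusted for the 51038 clusters. The edgeR adjusted p was 0.997 at 30 min and 1 at the other times, and 1 for the interaction of genotype and time.

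**Figure D3:**
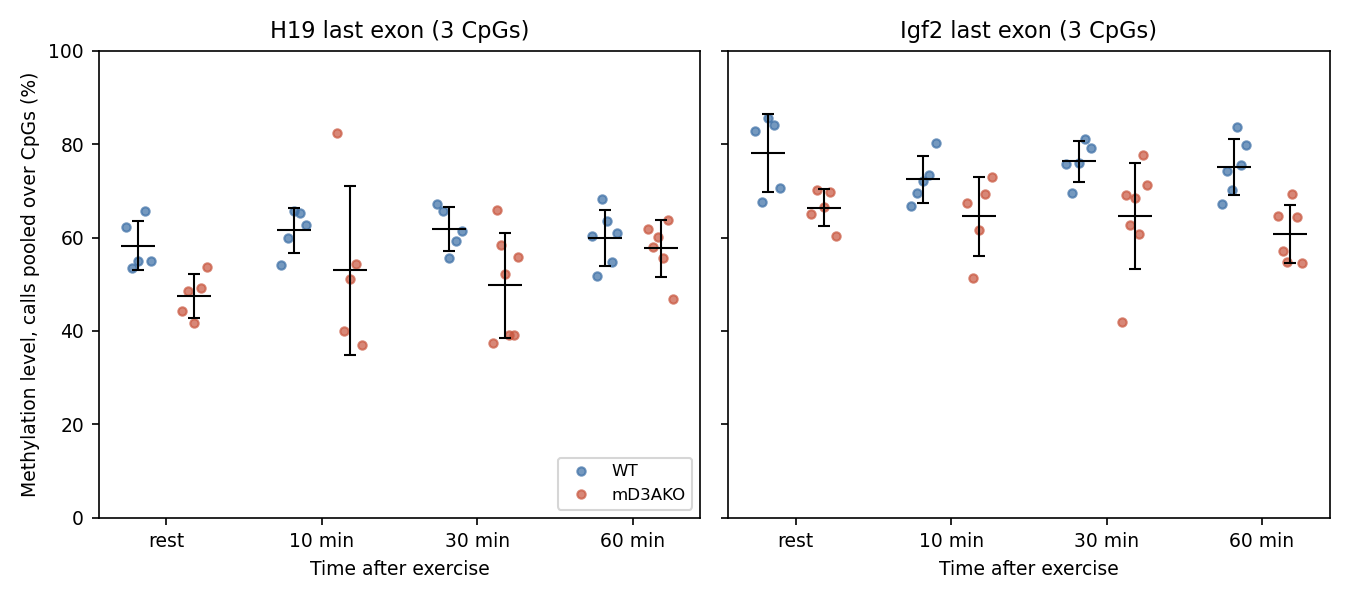
Methylation level in percent, calls pooled over the 3 CpGs of each last exon, by time after exercise for H19 (left) and Igf2 (right). Each point is a sample, blue WT and red mD3AKO, and black bars are mean ± SD of the group. The Igf2 means of mD3AKO lie below those of WT at every time, and the 10 min knockout at 82.4% stands above the other samples for H19.

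No cluster of the locus passed the test for time or for sex. By edgeR's quasi-likelihood test the time effect called 0 of the 10 clusters (0 at an unadjusted p under 0.05), the interaction 0 (2 at an unadjusted p under 0.05) and sex 0 (0 at an unadjusted p under 0.05). Of all 51038 clusters 1454, 1394 and 2223 had an unadjusted p under 0.05 for time, interaction and sex. Each of these fits called 0% of all clusters. The likelihood ratio test and the quasi-binomial model also called none of the 10 for time or for the interaction, and the likelihood ratio test none for sex. Of 5113 clusters the likelihood ratio test called 1 for time, 0 for the interaction and 0 for sex. The quasi-binomial model called 0 of 51038 for time and 0 for the interaction. Each time against rest, within WT and within mD3AKO, called 0% of all clusters in each of the 6 comparisons and none of the 10, where 2 of the 60 single tests had an unadjusted p under 0.05. In these comparisons 1429 to 2189 of all 51038 clusters had such a p. The genotype difference at single times called none of the 10 at rest, 10, 30 or 60 min, where 2, 1, 1 and 3 had an unadjusted p under 0.05. Of all 51038 clusters 2393, 2612, 2619 and 2669 had such a p at these times. Over all clusters those fits called 0.00392%, 0.0137%, 0.0176% and 0.00784%. The groups at 1 time hold 5 to 7 mice, against 21 and 23 in the comparison over all times.

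The CpGs in Gm33148, between H19 and Igf2, and in Ins2 had wide ranges of group means, from 14.7% to 52.7% and from 41.0% to 81.5%. For Gm33148 the extremes were both at 60 min. There the 6 WT samples ran from 25.8%, through a median of 55.4%, to 72.2%, and the 6 mD3AKO samples from 0, through 18.1%, to 27.0%, so 1 WT sample fell within the knockout range. The means were 52.7% ± 15.6 and 14.7% ± 12.6 (exact permutation p = 0.00433, not adjusted for all clusters), and edgeR gave a log2 odds ratio of -2.98 with an adjusted p of 0.731. At rest the order was the other way, 21.4% ± 23.5 in WT and 33.8% ± 19.9 in mD3AKO (exact permutation p = 0.381). The interaction of genotype and time at this CpG had an adjusted p of 1 by edgeR. It rested on 18 to 91 calls per sample at 60 min.

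Set beside the rest of the genome, the loss in the Igf2 last exon was larger than most but not extreme. Of all 51038 clusters 3.40% had a larger fall in mean level, and 328 had a lower p than its own, which placed it at rank 329. For H19 7.45% of clusters had a larger fall. Over all clusters the median difference was -0.455 percentage points and 62.4% were lower in mD3AKO, and within the locus 6 of 10 clusters were lower with a median of -4.25. Among the 5206 clusters within 5 percentage points of the WT level of the Igf2 last exon, the median difference was -0.91 points and 0.941% were called. Among the 3450 as close to the WT level of H19 the median was -1.55 points and 0.667% were called.

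**Figure D4:**
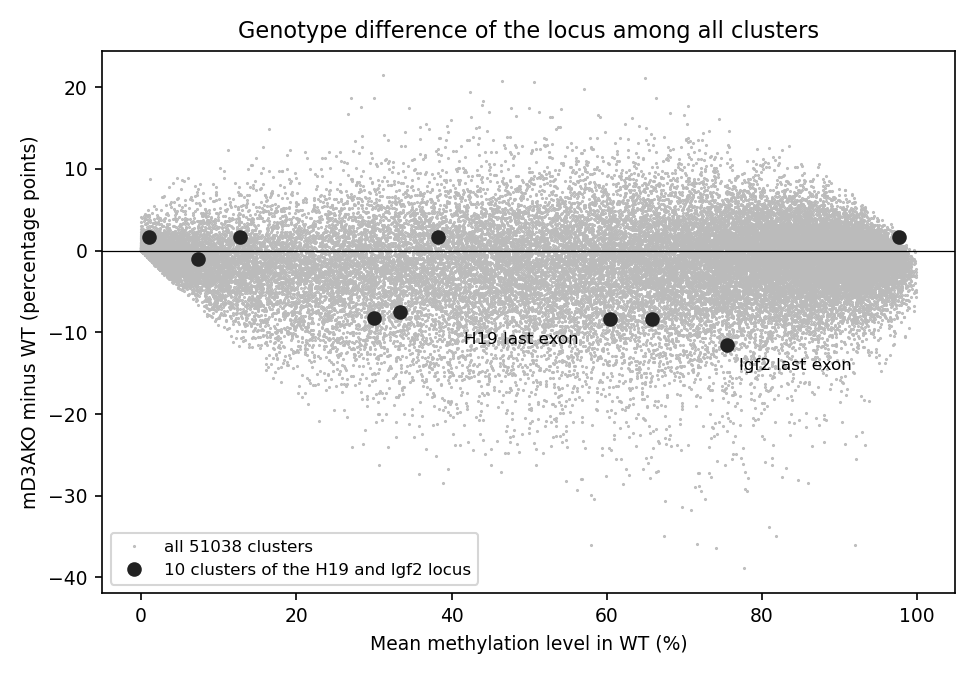
Difference in mean methylation, mD3AKO minus WT in percentage points, against the mean WT level in percent for all 51038 clusters (grey) and the 10 clusters of the locus (black). The last exons of Igf2 at -11.5 and of H19 at -8.35 percentage points lie within the lower part of the cloud.

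No relation between the levels of H19 and Igf2 from mouse to mouse passed a test. Pearson's r between the H19 gene and the pooled Igf2 gene was -0.0863 in 21 WT samples (permutation p = 0.707) and 0.219 in 23 mD3AKO samples (permutation p = 0.313), with Spearman's rho of -0.0299 (permutation p = 0.901) and 0.162 (permutation p = 0.458). Between the H19 and Igf2 last exons r was 0.145 in WT (permutation p = 0.527) and 0.156 in mD3AKO (permutation p = 0.47). Adjusted p over the 10 relations of each set was 0.721 or more for these pairs. Without the 2 samples farthest from the median H19 level, r between the H19 gene and the pooled Igf2 gene was -0.155 in WT and 0.334 in mD3AKO. H19 had an r of 0.0816 in WT and 0.249 in mD3AKO with the log2 of total calls (permutation p = 0.721 and 0.252).

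**Figure D5:**
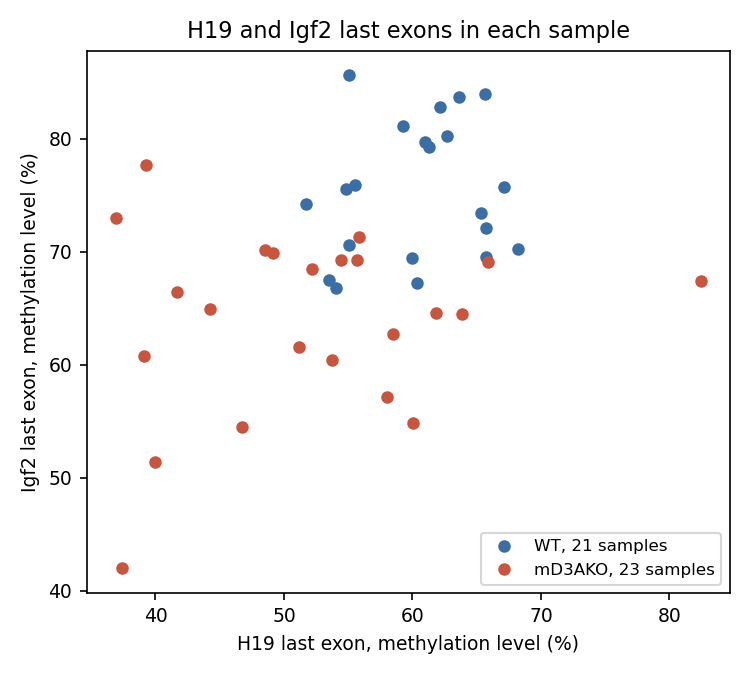
Methylation level of the Igf2 last exon against that of the H19 last exon, both in percent, with 1 point per sample, blue for 21 WT and red for 23 mD3AKO. Within neither genotype do the points follow a line, with r of 0.145 in WT and 0.156 in mD3AKO.

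Clusters elsewhere whose levels across the 44 samples were most like those of H19 were sought among 21532 clusters of at least 3 CpGs. The highest Pearson r was 0.639, for a cluster at chr4:106856007-106856138. Next came chr17:29057511-29057572 (r = 0.605), chr15:80055612-80055681 (r = 0.565) and chr12:111512727-111512859 (r = 0.564). For the Igf2 last exon the highest were in Shroom3 (chr5:92844134-92844172, r = 0.706) and at chr3:101497426-101497476 (r = 0.691), with mean levels of 67.6% and 64.9% in WT and 45.8% and 44.2% in mD3AKO. The samples of both genotypes enter these correlations, so a shared genotype difference raises them.

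Of 42 listed imprinted genes 31 had at least 1 cluster outside this locus, 87 clusters in all, of which 2 were lower and 0 higher in mD3AKO by edgeR's quasi-likelihood test, where 1.08% of all clusters were called lower. Their median difference was -0.812 percentage points, against -0.455 over all clusters, and 53 of 87 were lower, against 62.4% of all clusters. Both called clusters had intermediate levels in WT. A CpG in H13, which encodes a signal peptide peptidase (chr2:152707392), was at 35.8% ± 20.0 in WT and 8.52% ± 7.99 in mD3AKO (adjusted p = 0.00425, edgeR). A pair of CpGs in Kcnq1, a potassium channel gene in the neighboring imprinted domain of chromosome 7 (chr7:143389262-143389290), was at 47.3% ± 23.0 and 22.6% ± 8.30 (adjusted p = 0.00564, edgeR). Of 26 genes of IGF and insulin signaling 22 had clusters, 59 in all, with 2 called lower and 0 higher, beside the same 1.08% of all clusters. Their median difference was -0.761 percentage points and 36 of 59 were lower, beside 62.4% of all clusters. The called clusters lay in Foxo3, a transcription factor that insulin signaling restrains, and in Pik3r1, the regulatory subunit of PI3-kinase. The Foxo3 cluster of 25 CpGs, in its promoter and body, was at 2.00% ± 2.03 in WT and 0.348% ± 0.356 in mD3AKO (adjusted p = 0.00419, edgeR). The Pik3r1 cluster was at 51.1% ± 13.9 and 32.4% ± 14.4 (adjusted p = 0.031, edgeR). The cluster next by p, which did not pass, was that of Igfbp6, which encodes an IGF-binding protein that prefers IGF2, at 27.9% ± 7.56 and 18.9% ± 5.74 (adjusted p = 0.0598, edgeR).

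Samples held 12819404 to 41285655 calls in all, with a median coverage of 48 to 163 per CpG. No pair of samples of 1 group agreed within sampling noise over the 4769 CpGs compared, the mean chi-square per CpG being 8.33 or more. RRBS calls do not count copies of exon 19 of Dnmt3a, so the labels could not be checked against the deletion here. Promoter CpGs of 4 of 11 listed myofiber genes were measured and averaged 0.534% to 11.5% in WT, and the endothelial promoter of Kdr was also low, at 1.19%, so these levels do not tell cell types apart. The promoter of Pax7, a satellite cell marker, was at 17.3% in WT and 10.5% in mD3AKO. The paper lists this promoter as a putative DNMT3A target, less methylated in mD3AKO soleus, EDL and quadriceps, with more Pax7 RNA in soleus. Its part in the results was not tested. Fewer methylated copies in every fiber and a different mix of cells cannot be told apart in these bulk samples. WT samples 32 (30 min) and 42 (10 min) stood apart in earlier results, and without them the Igf2 last exon kept its call (log2 odds ratio -0.84, adjusted p = 0.0158, edgeR), with H19 at -0.46 (adjusted p = 0.417).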

How the data were processed

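The authors trimmed single-end RRBS reads with Trim Galore 0.4.0 and cutadapt 1.9.1, aligned them to mm10 with Bismark 0.18.1 and merged both strands of each CpG. They deposited, for each CpG and sample, counts of methylated and of unmethylated calls, for autosomal CpGs with at least 8 calls in every sample. Reads had no molecular identifiers, so counting errors and limits at 0 (3 calls) cover sampling of reads only. Of the 50 samples of the series 44 had counts.

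Calls were summed per cluster, and methylated against unmethylated counts were compared with edgeR 4.0.16 (R 4.3.3; quasi-likelihood test, sample effects, 8 group means, 1 common dispersion) over all clusters, with Benjamini-Hochberg adjustment at 0.05. The log2 odds ratio compares mD3AKO with WT averaged over times, and its SE is its size divided by the square root of F. CpGs, gene bodies and promoters were fitted likewise. Where all samples of a group were at 0 or 100% the odds ratio depends on the prior count and F could be 0 (2.46% of clusters, 43.9% of CpGs), which the test cannot call. Levels are pooled calls, compared by two-sided permutation tests (scipy 1.17.1). The fits were tested on simulated counts. Alternatives were the likelihood ratio test, a quasi-binomial model, limma 3.58.1, coverage of at least 20, gaps of 50 and 200 bp, sex as a term, and subsets of samples. To limit computing time, the likelihood ratio test ran on the locus and every 10th other feature and the leave-one-out fits on the locus and every 20th other cluster, with p-values adjusted over those. Genes came from GENCODE M21 and sequences from RefSeq's GRCm38.p6.

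Nothing in the labels ties mice to litters, and 1 sample whose title and genotype label disagreed was unassigned. The members and gene lists were chosen with earlier results of these data known. Named are H19, Igf2, every cluster of the window, the 5 clusters most like H19 and, for 2 gene lists, the called clusters and those of lowest p. Clusters most like the Igf2 last exon, and CpGs compared within fragments, were added after values were seen. One cluster among those most like H19 is not reported here.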

Additional observations from a re-analysis of the deposited data

Results flagged for a closer look

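In 77 groups of 5 to 7 samples, 1 sample stood far from its group 12 times (Dixon's test at 95%), where chance alone flags about 1 in 20 groups. Of the 12 flags, 5 were in the nearly fully methylated pair of the Gm49394 exon, where most samples are at 100%: 93.3% in WT sample 13 at rest (30 calls), 96.8% in mD3AKO sample 2 at rest (62 calls), 96.4% in WT sample 42 at 10 min, 88.8% in WT sample 38 at 30 min and 90.2% in mD3AKO sample 43 at 30 min.

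In cluster 7 of Igf2, nearly unmethylated, 3 samples were high: WT sample 11 at rest at 3.39% where the other 4 were at 0, mD3AKO sample 24 at rest at 8.09%, and mD3AKO sample 10 at 60 min at 7.63%. WT sample 11 at rest was also high at the Gm33148 CpG, at 62.9% (35 calls) against 4.76% to 15.7% in the other resting WT mice. At that CpG mD3AKO sample 26 at 10 min was low, at 7.94%; it is the knockout with the highest H19 level, 82.4%. The Nctc1 CpG was at 38.0% in WT sample 30 at 10 min, and cluster 1 was at 0% (0 of 46 calls, which allows up to 6.52%) in WT sample 38 at 30 min, against 30.5% to 39.6% in the other WT samples of that time. None of these samples stood apart by this measure in the H19 or Igf2 last exon.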

How the results depend on the processing

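Of the 10 clusters, 1 was called, the Igf2 last exon, and the count was also 1 under the likelihood ratio test, the quasi-binomial model, limma, coverage of at least 20, the 200 bp gap, sex as a term, without samples 32 and 42, and with each sample left out in turn (lowest 1, highest 1; its log2 odds ratio from -0.86 to -0.75). The likelihood ratio test and the leave-one-out fits were adjusted over the locus and every 10th or 20th other cluster and not over all clusters. It was 0 with sample numbers 1 to 25, 0 with 26 to 50 and 0 with the 50 bp gap. The first 2 use fewer samples, and the last had more clusters and a higher common dispersion (0.555 against 0.441). Over all clusters tested the calls were 556 of 51038 in the reported fit, 133 of 5113 by the likelihood ratio test, 1296 of 51038 by the quasi-binomial model and 895 of 51038 by limma. They were 430 of 28165 with coverage of at least 20, 554 of 56150 with the 200 bp gap and 475 of 73938 with the 50 bp gap. Of 51038 they were 569 with sex as a term, 597 without samples 32 and 42, 25 with numbers 1 to 25 and 33 with 26 to 50. The quasi-binomial model called 1 CpG of the locus where edgeR called 0, and 1 without samples 32 and 42, with 833, 584 and 886 of all 205304 CpGs called. The likelihood ratio test called 1 cluster of the locus at a single time, cluster 7 at 10 min, where the WT samples were all at 0. That fit called 5 of 5113 clusters, and the cause was not tested. The sign of clusters that were not called turned with sample subsets: cluster 2 (-0.11) and cluster 8 (0.14) with numbers 1 to 25, and cluster 5 (0.13) with numbers 26 to 50. Among segments, the H19 difference missed 0.05 in males (-8.01 points), and that of pooled Igf2 in females (-6.66) and in numbers 26 to 50 (-4.82). The CpGs downstream of H19 turned to -0.829 unweighted, -3.39 in numbers 1 to 25 and -0.23 without samples 32 and 42, and the Gm33148 CpG to 0.365 in numbers 26 to 50. With each sample left out the segments ranged from -9.73 to -7.66 (H19), -7.19 to -5.72 (Igf2), 0.394 to 1.95 (downstream of H19), -9.17 to -4.97 (Gm33148) and -3.58 to -1.53 (beyond Igf2). Correlations near 0 changed sign, where unweighted means equal weight for the CpGs of H19 or Igf2 and not for the whole-sample level. For H19 and Igf2 in WT r was 0.256 unweighted, 0.0535 without samples 32 and 42 and 0.145 with the last exon of Igf2. For H19 and the whole-sample level in WT it was 0.0934 without samples 32 and 42. For Igf2 and depth in WT it was 0.205 unweighted and 0.171 with the last exon. For Igf2 and the whole-sample level in WT r was -0.0948 unweighted, 0.557 (adjusted p = 0.0697) without samples 32 and 42 and 0.0762 with the last exon, and in mD3AKO 0.314 unweighted and 0.442 with the last exon. The alternative with the last exon was chosen after seeing the data. No paired analysis was possible because every sample number is used once. The single-CpG clusters held as few as 8 calls in a sample, and the p near 1 of cluster 9 without WT sample 38 or 42 is void, since a WT group is then wholly at 100%.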
